A study of Mus musculus with 26 samples.

Results

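The comparison described here sets the transcriptional response to mCherry-Fc, in cells with synthetic IL-22 receptors, against the response to IL-22, in cells with the natural receptors. The measure is a difference of 2 differences on the log2 scale, mCherry-Fc minus untreated in synthetic receptor cells, minus IL-22 minus untreated in natural receptor cells. It was formed from 20 of the 26 arrays of the series, taken by their labels and not by any measured value, and was tested for each of 19938 genes. The contrast addresses what a ligand that can pair only the IL-10R2 chains lacks or adds beside IL-22 acting on IL-10R2 with IL-22Rα1. A negative value means that the mCherry-Fc response was the smaller or more negative of the 2, and a positive value that it was the larger or more positive. In what follows "the difference" is this quantity, and a gene was called when its adjusted p in limma was under 0.05.

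IL-22 is a cytokine of the IL-10 family that lymphocytes make and that acts mainly on epithelial cells. It binds IL-22Rα1 and then IL-10R2, a chain it shares with IL-10, and the Janus kinases JAK1 and TYK2 on the chains phosphorylate STAT3 and, to a lesser degree, other STATs. Induced SOCS proteins then feed back on the kinases, and ERK signalling is a further branch of the pathway. In most accounts IL-10R2 is the accessory chain, whose kinase is TYK2, and the long chain carries most of the STAT docking sites.

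All groups were murine Ba/F3/gp130 cells, a pro-B line that grows on interleukin-3 or Hyper-IL-6 and carries gp130, the signalling chain of the IL-6 family. Synthetic receptor cells carried mCherryVHHIL-10R2 and GFPVHHIL-22Rα1, the receptor chains with a nanobody (VHH) against mCherry or GFP. They were given mCherry-Fc, a dimer that meets only the mCherry nanobody on IL-10R2 (n = 6), or left untreated (n = 6). Natural receptor cells carried IL-10R2 and IL-22Rα1 and were given IL-22 (n = 4) or left untreated (n = 4). A further 6 arrays of synthetic receptor cells given GFP-mCherry, a fusion that can bridge the 2 chains, contributed to the estimate of the spread and to a few comparisons named as such. Before treatment every group was washed 4 times and starved without serum for 4 h, and the proteins were used at 100 ng/ml for 2 h. No untreated group received a control protein. The labels do not say whether either line was a single clone. Ligand and receptor line differ together in the contrast, so their parts in it cannot be told apart. Nothing in the labels says that arrays of a group came from separate cultures, so p-values measure only the spread between these samples, and the number of arrays limits the precision. In bulk RNA, fewer cells of a type and less RNA per cell cannot be told apart.

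Arrays of 1 group had correlations of 0.981 to 0.994 with each other over all probe sets, and array medians lay between 6.06 and 6.28. Of the pro-B markers, Cd79a and Cd79b, the signalling chains of the B cell receptor, read 9.16 to 9.84 and 8.62 to 9.20 on the 20 arrays. Pax5 and Ebf1, the B lineage transcription factors, lay near the dim end of the arrays at 5.17 to 5.63 and 4.48 to 4.98. Lists of T cell, myeloid, mast cell and epithelial markers had 0 of 7, 0 of 9, 0 of 6 and 0 of 5 members called in the difference, beside 13.4% of all genes. These lists are dim, with median mean log2 levels of 5.62, 6.17, 4.26 and 5.81. At a mean of 5 to 7 only 1.6% of all genes were called higher and 4.69% lower. Several myeloid markers also spread widely on the natural arrays, as given below. The counts of 0 are thus no sign that these genes did not differ. Il22ra1 read 12.28, 12.27, 12.29 and 12.07 with IL-22 and 12.38, 12.43, 12.22 and 12.22 in untreated natural receptor cells. In synthetic receptor cells it read 6.16, 6.25 and 6.28 (lowest, median and highest of 6) with mCherry-Fc and 6.18, 6.31 and 6.48 untreated, and the untreated synthetic minus untreated natural difference was -6.00. The labels do not say whether the synthetic chain contains the part of the gene that these probes read, so the low level there is no measure of that chain. A second Il22ra1 probe set was dim in both lines, at a mean of 5.76 with mCherry-Fc and 6.0 in untreated synthetic receptor cells, and of 5.95 with IL-22 and 5.84 in untreated natural receptor cells. Il10rb, the gene of IL-10R2, also read lower in the synthetic line, at 10.02 to 10.20 with mCherry-Fc and 9.99 to 10.16 untreated. In the natural line it read 12.01, 12.12, 12.13 and 11.72 with IL-22 and 12.21, 12.07, 11.79 and 11.71 untreated. For this chain too the labels do not say whether the synthetic form contains the part that the probes read. The difference was 0.01 ± 0.09 for Il22ra1, -0.00 ± 0.11 for Il10rb and -0.02 ± 0.08 for Il6st, the gene of gp130 (log2, estimate ± SE). None of the 3 was called, and their 95% intervals were -0.17 to 0.18, -0.24 to 0.23 and -0.18 to 0.14.

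The natural receptor arrays numbered 4 and 5 stood apart from the other natural arrays. The mean log2 level of 9 myeloid markers was 8.33 on IL-22 replicate 5 and 8.08 and 8.31 on untreated natural replicates 4 and 5. On the other 5 natural arrays it was 6.70 to 6.77, and it was 6.24 to 6.44 with mCherry-Fc and 6.18 to 6.48 in untreated synthetic receptor cells. Mpo, myeloperoxidase of neutrophil granules, read 6.97, 7.05, 6.97 and 10.87 with IL-22 (replicates 1, 2, 3 and 5), against 7.16, 7.19, 10.62 and 11.00 in untreated natural receptor cells (replicates 2, 3, 4 and 5). Itgam, Lyz2, Cd68 and Adgre1 were also brighter on the arrays numbered 4 and 5, while Ly6g and Csf1r moved by small amounts. Elane and Prtn3 of the same list were not brighter. Elane read 6.34 on IL-22 replicate 5 and 6.17 and 6.08 on untreated natural replicates 4 and 5, against 6.18 to 6.47 on the other 5 natural arrays. Prtn3 read 10.31, 9.95 and 10.04, against 10.00 to 10.34. The arrays numbered 4 and 5 make up 1 of 4 IL-22 arrays and 2 of 4 untreated natural arrays, and their part in each result was read by leaving all 3 out, a setting chosen after seeing the data. With natural arrays numbered 1 to 3 and all synthetic arrays, 3308 genes were called in the difference, 2368 of them among the 2664 called with all arrays. Of the 95 called genes named below, 91 stayed called and 0 changed sign. The series was also split by sample number into a low range (natural 1 to 3, synthetic 7 to 11) and a high range (natural 4 and 5, synthetic 12 to 15), which leaves 1 IL-22 array in the high range. That split was known from an earlier look at these data, not from the labels. Of the 95 called named genes 91 had the sign of the main difference in both ranges, and values within each range are given for a part of the genes. Most of the 95 were named for their difference with all arrays, and both readings reuse those arrays. Agreement in these counts is thus in part built in.

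The difference was called for 2664 of 19938 genes (13.4%), with 1747 higher (8.76%) and 917 lower (4.6%). Large differences ran mostly the other way, since 139 of the 170 genes called at 2-fold or more were lower, meaning a weaker mCherry-Fc response, and 31 were higher. mCherry-Fc against untreated called 5371 genes (26.9%; 14% higher and 13% lower), of which 12 reached 2-fold, all of them higher. IL-22 against untreated called 2277 genes (11.4%; 5.39% higher and 6.03% lower), of which 173 were at least 2-fold higher and 23 at least 2-fold lower. Centring each array on its median moved the median mCherry-Fc response by over 0.1, to 0.07 from -0.036, and changed the share of calls that were higher to 88.8% from 51.9% for mCherry-Fc and to 82.8% from 65.6% for the difference. Within the low sample numbers 4253 genes were called in the difference, and within the high ones 872. Leaving out 1 array gave 1997 (without IL-22 replicate 1) to 3359 calls (without IL-22 replicate 5).

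The 2 responses, which share no array, correlated across all genes at r = 0.227 (Spearman 0.109, 19938 genes, which are not independent), and at r = 0.152 without the natural arrays numbered 4 and 5. Both responses called 857 genes, 16% of the mCherry-Fc calls and 37.6% of the IL-22 calls, and 659 of them (76.9%) had the same sign. Of the 173 genes that IL-22 raised at least 2-fold, mCherry-Fc raised 77, lowered 5 and left 91 without a call. Their median log2 response was 0.235 with mCherry-Fc and 1.44 with IL-22, and the difference was called lower for 165, higher for 1 (Pim1) and not called for 7. Over all genes the median difference was -0.0157. Only 12 of the 173 reached at least 50% of their IL-22 response with mCherry-Fc on the log2 scale. Of the 23 genes that IL-22 lowered at least 2-fold, mCherry-Fc lowered 8 and left 15 without a call, with medians of -0.234 for mCherry-Fc and -1.17 for IL-22. Both sets were picked by the IL-22 response, whose arrays also enter the difference. A smaller response to mCherry-Fc is thus in part built into these counts and medians. In the reverse choice, mCherry-Fc raised 12 genes at least 2-fold. IL-22 called 8 of them with the same sign, 2 with the opposite sign and 2 not at all, and the difference was called for 7.

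**Figure D1:**
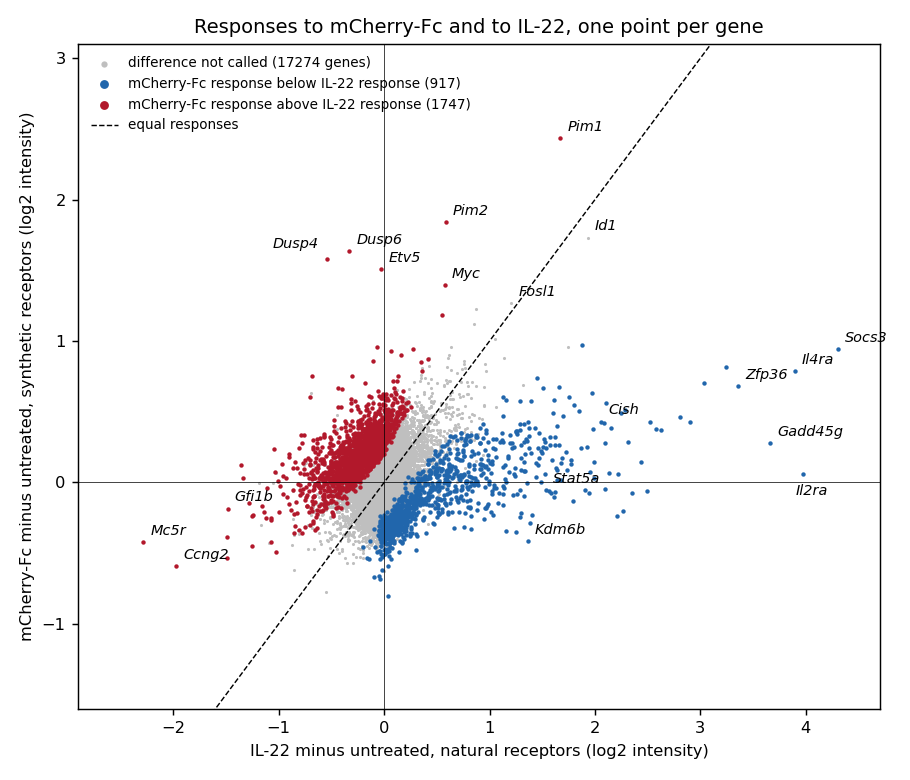
Log2 response to mCherry-Fc in synthetic receptor cells (vertical axis) against log2 response to IL-22 in natural receptor cells (horizontal axis) for 19938 genes, 1 point per gene, with genes called in the difference coloured by direction and the dashed line marking equal responses. The points far to the right, among them Il2ra and Socs3, lie near a vertical value of 0 to 1, while Dusp4, Dusp6 and Etv5 lie high at an IL-22 response near or below 0.

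The core of the STAT3 feedback response was far smaller with mCherry-Fc than with IL-22. Of 29 measured genes of a list of STAT3 targets, 20 had a lower and 2 a higher difference. That is 75.9% called, beside 13.4% of all genes, and the list's median difference was -0.89. mCherry-Fc raised 18 and lowered 2 of the 29, with a median response of 0.32. IL-22 raised 24 and lowered none, with a median of 1.29. Without the natural arrays numbered 4 and 5 the counts were 22 lower and 1 higher. Socs3, which encodes the SOCS protein that blocks gp130-type receptors and their JAKs, read 8.28, 8.36 and 8.44 (lowest, median and highest of 6) with mCherry-Fc, against 7.21, 7.43 and 7.66 in untreated synthetic receptor cells. In the other line it read 11.77, 11.92, 11.81 and 11.82 with IL-22, against 7.59, 7.38, 7.78 and 7.36 in untreated natural receptor cells. The groups did not overlap in either line, so mCherry-Fc raised Socs3 by 0.94 ± 0.07 (log2, SE; adjusted p = 3.45e-10), 1.92-fold, while IL-22 raised it by 4.30 ± 0.09 (adjusted p = 7.24e-24), 19.7-fold. The difference was -3.36 ± 0.11 (adjusted p = 4.61e-18), -3.43 within the low and -3.28 within the high sample numbers. A second Socs3 probe set gave a difference of -3.08, with an IL-22 response of 3.25 and an mCherry-Fc value of 0.16 that was not called (adjusted p = 0.24).

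Other feedback genes followed in part. Cish, the STAT5-induced SOCS family member, read 7.06, 7.10 and 7.19 (lowest, median and highest of 6) with mCherry-Fc, against 6.53, 6.64 and 6.85 in untreated synthetic receptor cells. With the natural receptors it read 9.49, 9.64, 9.35 and 9.45 with IL-22, against 7.07, 6.99, 7.64 and 8.00 in untreated natural receptor cells. Its difference was -1.63 ± 0.17 (adjusted p = 9.35e-08), -2.14 within the low and -1.10 within the high sample numbers. Socs1, another JAK inhibitor, was raised by IL-22 (0.42 ± 0.11), had an uncalled mCherry-Fc value of -0.11 ± 0.09 and a difference of -0.53 ± 0.14 (adjusted p = 0.00879). With the sample number as a block that adjusted p was 0.0581. Socs2 was raised about alike, by 0.53 ± 0.10 with mCherry-Fc and 0.61 ± 0.12 with IL-22, and its uncalled difference of -0.08 had a 95% interval of -0.40 to 0.24. Of all 13 measured feedback genes of the JAK-STAT list, 4 were lower, 1 higher and 8 not called (median difference -0.02). Of all genes, 4.6% were called lower and 8.76% higher. The higher feedback gene, Pias3, an inhibitor of STAT3 DNA binding, was lowered by IL-22 alone (-0.67 ± 0.13) and differed by 0.72 ± 0.16.

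Of the 12 genes with the most negative difference, Gadd45g, a growth arrest and stress gene, differed by -3.38 ± 0.15. Its level was 8.31, 8.52 and 8.59 (lowest, median and highest of 6) with mCherry-Fc, against 8.05, 8.18 and 8.41 in untreated synthetic receptor cells, where the groups overlapped. With the natural receptors it was 12.08, 12.03, 12.06 and 11.59 with IL-22, against 8.20, 8.04, 8.34 and 8.52 in untreated natural receptor cells. Zfp36, which encodes tristetraprolin, a protein that speeds decay of cytokine mRNAs, rose 1.6-fold with mCherry-Fc and 10.2-fold with IL-22 (difference -2.67 ± 0.19, adjusted p = 8.65e-11). Sbno2, a STAT3-induced transcription regulator, rose 1.38-fold with mCherry-Fc and 7.01-fold with IL-22 (difference -2.35 ± 0.09). Tgm1, a transglutaminase best known from the skin barrier, rose by 0.43 ± 0.09 with mCherry-Fc and 2.90 ± 0.11 with IL-22 (difference -2.47 ± 0.14). Gpr146, an orphan G protein coupled receptor, and Rnd1, a small GTPase, were raised by IL-22 alone, by 2.49 ± 0.11 and 2.27 ± 0.10, beside uncalled mCherry-Fc values of -0.06 ± 0.09 and -0.20 ± 0.08.

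Start sites of these genes were searched for TTCNNNGAA, the palindromic form of site that STAT dimers bind, which reads the same on both strands. The windows, from RefSeq (GRCm38.p6), run from 250 bases before to 50 after each start. Of the 12 genes with the most negative difference 9 had a window, and 5 of these held the motif (Gpr146, Sbno2, Socs3, Tgm1 and Zfp36). Of the 12 with the most positive difference 9 had a window and 1 held it (Gfi1b). Over all genes 9.55% of 27025 held it, and over all windows 8.3% of 32851. A match is a description of the letters, not a site or a cause. The windows of 3 strongly IL-22-raised genes and of Dusp6, raised by mCherry-Fc and not by IL-22, are shown 5′ to 3′ with the motif in capitals.
Socs3 (chr11:117969317-117969616, minus strand): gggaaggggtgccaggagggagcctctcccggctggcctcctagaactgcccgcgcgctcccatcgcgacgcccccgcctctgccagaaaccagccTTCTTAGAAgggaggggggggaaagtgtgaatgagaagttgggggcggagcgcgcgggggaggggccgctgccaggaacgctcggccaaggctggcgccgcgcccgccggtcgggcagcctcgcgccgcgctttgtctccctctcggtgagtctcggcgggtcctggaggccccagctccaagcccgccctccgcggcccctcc
Zfp36 (chr7:28379179-28379478, minus strand): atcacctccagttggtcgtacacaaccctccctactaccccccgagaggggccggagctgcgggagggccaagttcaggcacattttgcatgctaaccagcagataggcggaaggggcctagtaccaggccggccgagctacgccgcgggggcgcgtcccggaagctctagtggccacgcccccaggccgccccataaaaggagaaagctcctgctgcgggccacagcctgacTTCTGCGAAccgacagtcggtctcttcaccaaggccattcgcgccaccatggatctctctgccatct
Tgm1 (chr14:55713443-55713742, minus strand): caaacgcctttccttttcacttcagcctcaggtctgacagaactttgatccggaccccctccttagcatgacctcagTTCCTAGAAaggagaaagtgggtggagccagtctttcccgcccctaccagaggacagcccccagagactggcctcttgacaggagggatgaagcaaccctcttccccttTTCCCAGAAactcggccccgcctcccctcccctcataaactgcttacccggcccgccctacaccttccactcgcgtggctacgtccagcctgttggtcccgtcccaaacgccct
Dusp6 (chr10:99262981-99263280, plus strand): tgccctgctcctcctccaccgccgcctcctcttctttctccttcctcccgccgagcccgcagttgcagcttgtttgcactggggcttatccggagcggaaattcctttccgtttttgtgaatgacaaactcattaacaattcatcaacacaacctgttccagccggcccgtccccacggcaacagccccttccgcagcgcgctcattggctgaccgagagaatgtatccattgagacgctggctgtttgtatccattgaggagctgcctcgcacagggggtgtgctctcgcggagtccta
The motif began 154 bases before the start in Socs3, 17 in Zfp36, and 173 and 64 in Tgm1, whose second annotated window (chr14:55713039-55713338) held none. No match was found in the Dusp6 window.

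**Figure D2:**
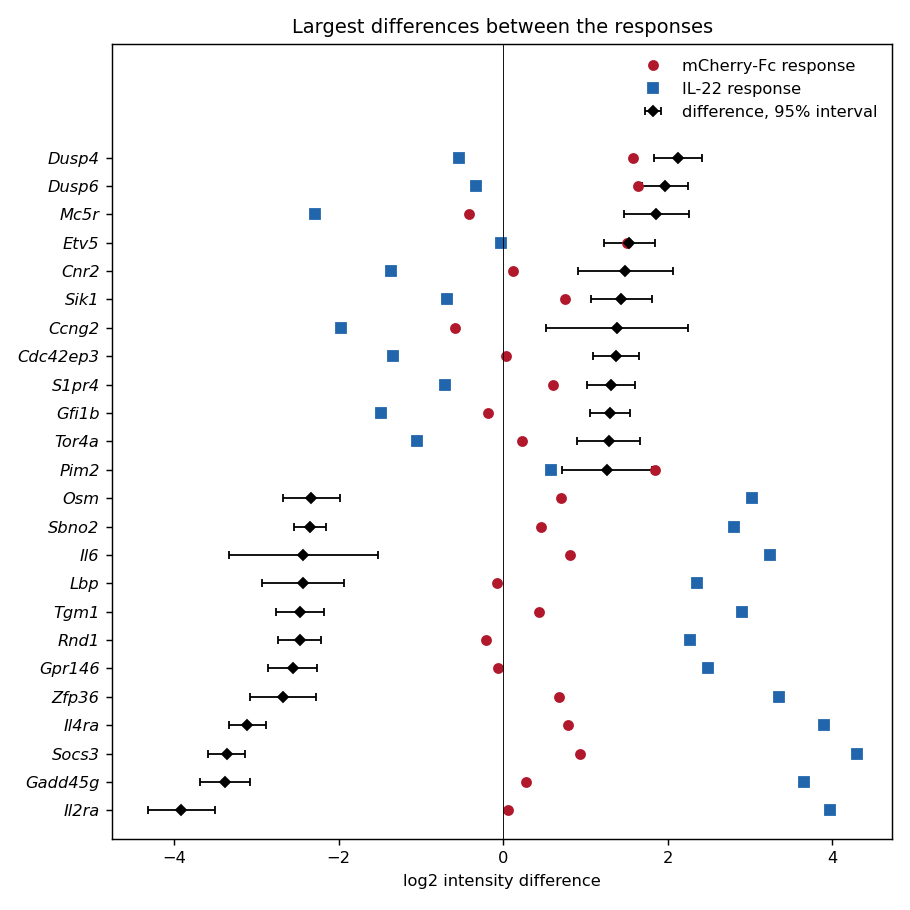
Log2 response to mCherry-Fc (circles, synthetic receptors), log2 response to IL-22 (squares, natural receptors) and their difference with its 95% interval (diamonds) for the 12 genes with the most positive and the 12 with the most negative difference, 1 gene per line. For the lower set the median response was 0.45 with mCherry-Fc and 3.14 with IL-22, and for the higher set 0.42 with mCherry-Fc and -0.88 with IL-22.

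Receptor and STAT genes that IL-22 induced were mostly not induced by mCherry-Fc. Il2ra, the IL-2 receptor alpha chain, had the most negative difference of all genes. It read 4.50, 4.76 and 4.84 (lowest, median and highest of 6) with mCherry-Fc, against 4.53, 4.65 and 4.85 in untreated synthetic receptor cells, overlapping groups. It read 10.09, 10.15, 10.31 and 9.17 with IL-22, against 5.75, 5.71, 6.11 and 6.25 in untreated natural receptor cells. IL-22 thus raised it 15.7-fold, beside an uncalled mCherry-Fc response of 0.06 ± 0.13, and the difference was -3.91 ± 0.20 (adjusted p = 3.67e-14), -4.35 within the low and -2.97 within the high sample numbers. Il4ra, the IL-4 receptor alpha chain, did respond to both, 1.73-fold to mCherry-Fc and 14.9-fold to IL-22 (difference -3.11 ± 0.11, adjusted p = 5.52e-18). Its arrays read 9.27, 9.32 and 9.35 (lowest, median and highest of 6) with mCherry-Fc, against 8.43, 8.52 and 8.69 in untreated synthetic receptor cells, with no overlap. They read 12.81, 12.82, 12.89 and 12.34 with IL-22, against 8.78, 8.77, 8.77 and 8.96 in untreated natural receptor cells.

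Stat3 itself, a target of its own protein, read 11.00, 11.07 and 11.14 (lowest, median and highest of 6) with mCherry-Fc, against 10.88, 10.97 and 11.12 in untreated synthetic receptor cells, overlapping. On the natural receptor arrays it read 11.88, 11.89, 11.91 and 11.70 with IL-22, against 10.81, 10.76, 10.91 and 10.98 in untreated natural receptor cells. The IL-22 response was 0.98 ± 0.06, the mCherry-Fc value 0.09 ± 0.05 (adjusted p = 0.191, not called) and the difference -0.89 ± 0.08 (adjusted p = 1.21e-08). Stat5a and Stat2 showed the same form, with IL-22 responses of 1.53 ± 0.06 and 1.22 ± 0.08, mCherry-Fc values of -0.05 ± 0.05 and -0.09 ± 0.06, and differences of -1.59 ± 0.08 and -1.31 ± 0.10. Jak2, the kinase of single-chain cytokine receptors, differed by -0.70 ± 0.11 and Il21r, the IL-21 receptor, by -0.52 ± 0.13. Csf2rb and Csf2rb2, the beta chains through which the line receives interleukin-3, were raised by IL-22 (0.71 ± 0.15 and 0.62 ± 0.12), not called with mCherry-Fc, and differed by -0.69 ± 0.19 and -0.77 ± 0.16. The Csf2rb call was lost without untreated natural replicate 2 (difference -0.551, adjusted p = 0.0552) or 3 (-0.549, adjusted p = 0.0536). Of 30 measured receptor, JAK and STAT genes 9 were lower and 1 higher (median difference -0.16), beside 4.6% and 8.76% of all genes.

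**Figure D3:**
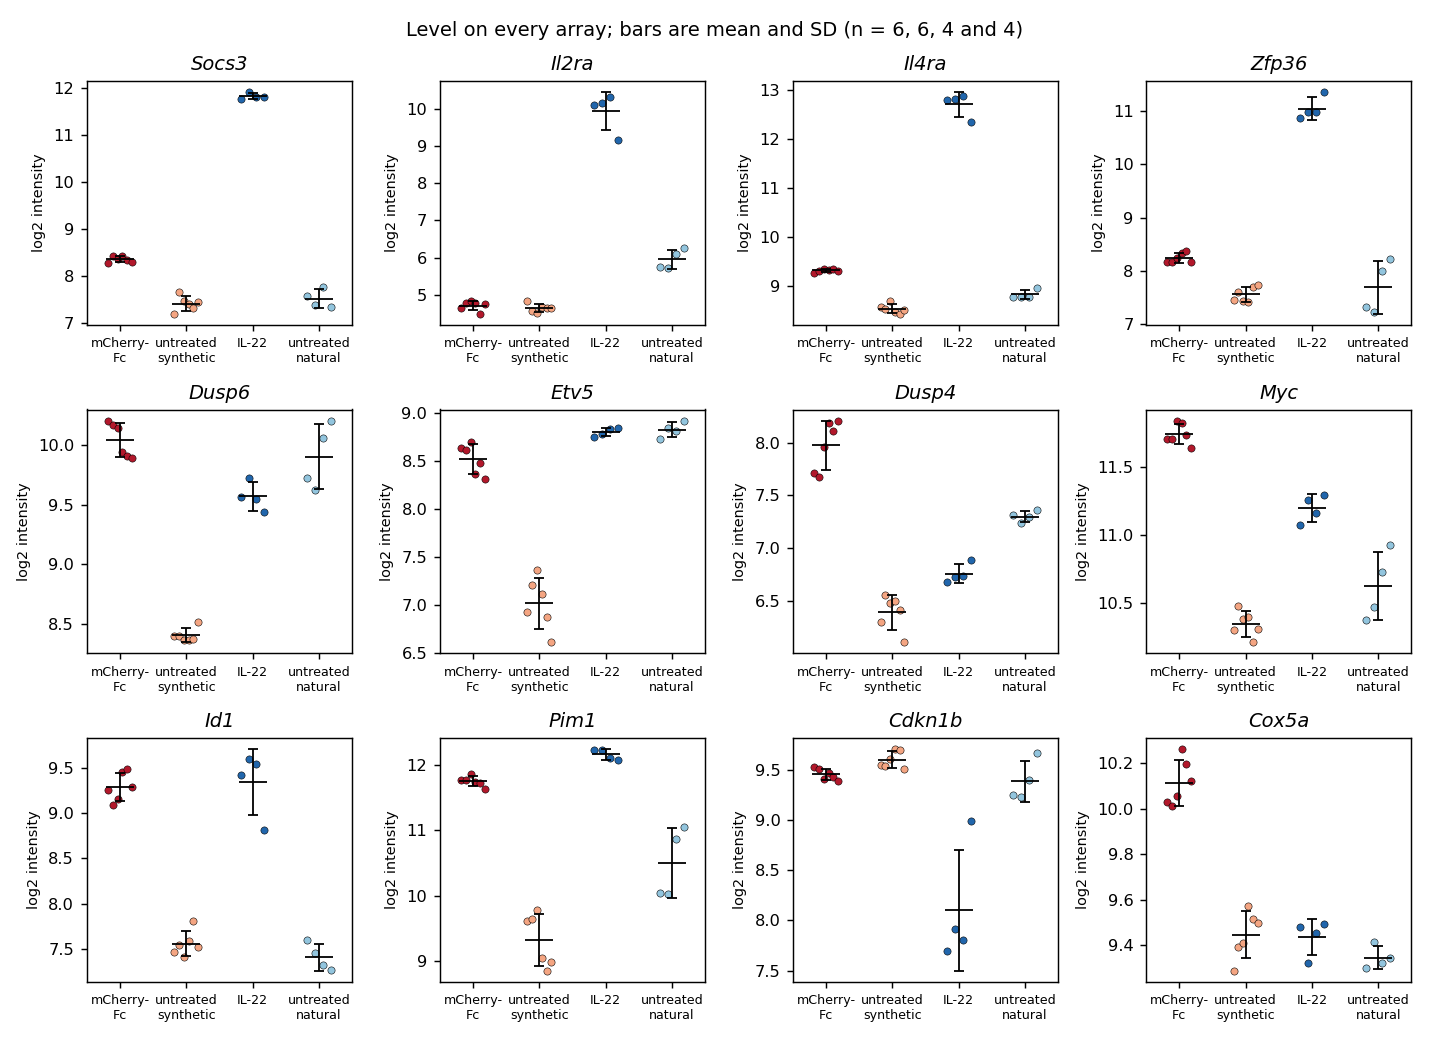
Log2 intensity on every array of the 4 groups compared (points, 1 per array) with the group mean and SD (bars), mCherry-Fc beside untreated synthetic receptor cells and IL-22 beside untreated natural receptor cells, 1 panel per gene. In the Socs3 panel the 6 mCherry-Fc arrays lie just above the untreated synthetic arrays while the 4 IL-22 arrays lie far above untreated natural ones, and in the Dusp6 and Etv5 panels the untreated synthetic arrays lie lowest.

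Some cytokine genes were also induced less. Of 25 measured cytokine and chemokine ligands, 7 were lower, 0 higher and 18 not called (median difference -0.11), beside 4.6% of all genes called lower. Osm, oncostatin M of the IL-6 family, read 7.59, 7.67 and 7.73 (lowest, median and highest of 6) with mCherry-Fc, against 6.77, 6.96 and 7.23 in untreated synthetic receptor cells, and rose 1.63-fold. With natural receptors it read 10.62, 10.59, 10.50 and 9.68 with IL-22, against 7.22, 7.32, 7.20 and 7.53 in untreated natural receptor cells, and rose 8.17-fold (difference -2.33 ± 0.17, adjusted p = 9.59e-11). Il6 read 6.99, 7.63 and 8.12 (lowest, median and highest of 6) with mCherry-Fc, against 5.84, 6.66 and 7.90 in untreated synthetic receptor cells. In the natural line it read 11.21, 11.33, 11.33 and 10.78 with IL-22, against 7.59, 7.49, 8.08 and 8.52 in untreated natural receptor cells. The mCherry-Fc arrays of Il6 overlapped the untreated ones over all numbers, while within the 3 same-numbered pairs it read 6.99, 8.12 and 8.10 with mCherry-Fc, against 6.12, 7.90 and 7.51 untreated, higher in each pair. The rise was called (0.81 ± 0.28, adjusted p = 0.0314), the IL-22 response was 3.24 ± 0.34 and the difference -2.43 ± 0.44 (adjusted p = 0.000319). Lif, another gp130 cytokine, and Tnf rose 1.3-fold and 1.42-fold with mCherry-Fc and 3.94-fold and 3.61-fold with IL-22. Il10 and Il27 were raised by IL-22 alone (1.24 ± 0.13 and 1.13 ± 0.12) and differed by -1.20 ± 0.17 and -1.29 ± 0.16.

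In the IL-10 response STAT3 restrains inflammatory genes in macrophages. Of 16 measured genes of its list 10 were lower and 0 higher (median difference -0.71), beside 4.6% and 8.76% of all genes. Beside Socs3, Zfp36, Sbno2 and Il4ra the list holds Bcl3, an atypical NF-kB inhibitor that differed by -0.85 ± 0.13. It also holds the basic zipper factor Nfil3, which differed by -1.34 ± 0.23. Tnip3, a partner of A20 and also a member, was raised by IL-22 (1.99 ± 0.15), had an uncalled mCherry-Fc value of 0.15 ± 0.12 and differed by -1.84 ± 0.19. The untreated lines differed widely in that gene, by -3.81 ± 0.13 for synthetic minus natural. Nfkbia, the main cytosolic NF-kB inhibitor, was called in neither response (0.07 ± 0.17 with mCherry-Fc, -0.07 ± 0.21 with IL-22), and its difference of 0.15 had a 95% interval of -0.41 to 0.71. Of 23 NF-kB subunits and target genes 11 were lower and 1 higher (median -0.37), beside 4.6% and 8.76% of all genes. Within the low sample numbers 13 were lower and 2 higher, and within the high ones 1 was lower and 1 higher.

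Acute phase and epithelial genes are the classical IL-22 targets. In these pro-B cells 4 of 19 measured members had a lower difference and 0 a higher one, beside 4.6% of all genes called lower, and 1 of the 4, Duox2, lost its call under several settings. Lbp, the lipopolysaccharide-binding acute phase protein, read 6.31, 6.59 and 6.72 (lowest, median and highest of 6) with mCherry-Fc, against 6.43, 6.60 and 6.82 in untreated synthetic receptor cells, overlapping. Among natural receptor arrays the values were 10.27, 10.38, 10.42 and 10.58 with IL-22, against 7.56, 7.57, 8.31 and 8.81 in untreated natural receptor cells, without overlap. It rose 5.11-fold with IL-22 and its difference was -2.43 ± 0.24 (adjusted p = 3.26e-08). Muc1, a membrane mucin, was raised by IL-22 alone and differed by -0.74 ± 0.15. Muc13 went opposite ways by small amounts, -0.15 ± 0.04 with mCherry-Fc and 0.23 ± 0.05 with IL-22. Duox2, an epithelial oxidase, fell with mCherry-Fc (-0.28 ± 0.06) and differed by -0.30 ± 0.09. That call ended without the natural arrays numbered 4 and 5 (-0.186, adjusted p = 0.242) and with the sample number as a block (-0.217, adjusted p = 0.22), and leaving out any 1 of 8 arrays ended it too.

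In the opposite direction, Dusp6, Dusp4, Etv5 and Spred2, genes that ERK signalling induces and whose products in part restrain it, rose with mCherry-Fc and not with IL-22. Dusp6, the cytosolic phosphatase that removes phosphate from ERK, read 9.89, 10.04 and 10.21 (lowest, median and highest of 6) with mCherry-Fc, against 8.37, 8.39 and 8.52 in untreated synthetic receptor cells. In the natural line it read 9.57, 9.73, 9.55 and 9.44 with IL-22, against 9.72, 9.62, 10.06 and 10.20 in untreated natural receptor cells. mCherry-Fc raised it 3.11-fold (1.64 ± 0.09, adjusted p = 4.04e-13) with no overlap, and IL-22 lowered it 1.26-fold (-0.33 ± 0.11, adjusted p = 0.0396) with overlapping arrays. That IL-22 call was lost without the natural arrays numbered 4 and 5 (-0.0594, adjusted p = 0.862), where the difference was 1.70 (adjusted p = 9.13e-10). The difference was 1.97 ± 0.14 (adjusted p = 3.31e-11), 1.84 within the low and 2.19 within the high sample numbers. Untreated synthetic receptor cells started lower than untreated natural ones, by -1.50 ± 0.10, so that the mCherry-Fc level lay near the untreated natural level. That gap's part in the difference was not tested.

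Dusp4, the nuclear phosphatase of the same family, had the most positive difference. It read 7.68, 8.03 and 8.21 (lowest, median and highest of 6) with mCherry-Fc, against 6.11, 6.45 and 6.56 in untreated synthetic receptor cells. In natural receptor cells it read 6.68, 6.73, 6.74 and 6.89 with IL-22, against 7.31, 7.24, 7.29 and 7.36 in untreated natural receptor cells, again with no overlap and the opposite direction. The responses were 1.58 ± 0.09 and -0.54 ± 0.11, and the difference 2.12 ± 0.14 (adjusted p = 1.55e-11). Etv5, an ETS factor that ERK signalling induces, read 8.31, 8.55 and 8.71 (lowest, median and highest of 6) with mCherry-Fc, against 6.61, 7.02 and 7.37 in untreated synthetic receptor cells. With natural receptors it read 8.75, 8.79, 8.83 and 8.84 with IL-22, against 8.73, 8.85, 8.82 and 8.92 in untreated natural receptor cells. It rose 2.84-fold with mCherry-Fc, the IL-22 value was -0.03 ± 0.12 (not called, 95% interval -0.27 to 0.21), and the difference was 1.53 ± 0.15 (adjusted p = 2.77e-08). Its untreated lines differed by -1.81 ± 0.11, synthetic minus natural.

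Spred2, an inhibitor of RAS to RAF signalling, rose by 0.93 ± 0.06 with mCherry-Fc beside 0.07 ± 0.08 with IL-22, which was not called (difference 0.87 ± 0.10, adjusted p = 6.46e-07). Dusp7, a further ERK phosphatase, had opposite responses of 0.53 ± 0.06 and -0.44 ± 0.08. The branch did not move as a block, because Spry2, an inhibitor of receptor tyrosine kinase signalling, was raised by both, by 0.60 ± 0.07 with mCherry-Fc and 1.12 ± 0.08 with IL-22, and differed by -0.52 ± 0.10. Egr2, a zinc finger factor of the immediate early response, rose by 0.56 ± 0.13 with mCherry-Fc and 2.10 ± 0.17 with IL-22 (difference -1.54 ± 0.21), while Egr1 was called in neither (difference 0.04, 95% interval -0.28 to 0.37). Junb and Fosl2 of the AP-1 family differed by -1.22 ± 0.19 and -1.05 ± 0.15. Of 32 measured immediate early and MAPK feedback genes, mCherry-Fc raised 20 and lowered 1, and IL-22 raised 18 and lowered 3. The difference was lower for 10 and higher for 4 of the 32 (median -0.19), beside 4.6% and 8.76% of all genes. Within the low sample numbers it was lower for 16 and higher for 6, and within the high ones lower for 2 and higher for 6.

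Among growth and survival genes downstream of cytokine receptors, the kinase gene Pim2 and Myc had larger responses to mCherry-Fc than to IL-22. Pim2 read 9.68, 10.00 and 10.33 (lowest, median and highest of 6) with mCherry-Fc, against 7.94, 8.17 and 8.35 in untreated synthetic receptor cells. On the natural pair it read 11.90, 11.97, 11.90 and 12.55 with IL-22, against 10.87, 10.98, 11.93 and 12.20 in untreated natural receptor cells. It rose 3.59-fold with mCherry-Fc, its IL-22 value of 0.58 ± 0.21 was not called (adjusted p = 0.0699), and the difference was 1.26 ± 0.27 (adjusted p = 0.00173), 0.86 within the low and 1.35 within the high sample numbers. Without the natural arrays numbered 4 and 5 the IL-22 response of Pim2 was called (0.999, adjusted p = 3.3e-05) and the difference was 0.843 (adjusted p = 0.00184). The untreated lines differed by -3.33 ± 0.19, synthetic minus natural, so every mCherry-Fc array still read below every IL-22 array. Myc read 11.64, 11.72 and 11.84 (lowest, median and highest of 6) with mCherry-Fc, against 10.21, 10.34 and 10.48 in untreated synthetic receptor cells. In the natural line it read 11.08, 11.26, 11.16 and 11.30 with IL-22, against 10.37, 10.47, 10.73 and 10.92 in untreated natural receptor cells. Its responses were 1.40 ± 0.07 with mCherry-Fc and 0.57 ± 0.09 with IL-22, and the difference was 0.82 ± 0.11 (adjusted p = 6.99e-06), 0.62 within the low and 0.96 within the high sample numbers.

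Pim1 had the largest mCherry-Fc response among the named genes, 5.41-fold, beside 3.18-fold with IL-22. It read 11.63, 11.76 and 11.86 (lowest, median and highest of 6) with mCherry-Fc, against 8.85, 9.32 and 9.77 in untreated synthetic receptor cells. In natural receptor cells it read 12.23, 12.23, 12.11 and 12.08 with IL-22, against 10.04, 10.03, 10.87 and 11.05 in untreated natural receptor cells. Its difference of 0.77 ± 0.24 (adjusted p = 0.0328) rested on the natural arrays numbered 4 and 5, in which untreated cells were high. It was 0.275 (adjusted p = 0.428) without those 3 arrays, -0.03 within the low and 1.62 within the high sample numbers, and 0.755 (adjusted p = 0.104) with the sample number as a block. Leaving out 1 of 5 single arrays also ended the call, with the lowest value, 0.583, without untreated natural replicate 5.

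Without a called difference, 350 genes rose with both ligands and 140 fell with both. Id1, the inhibitor of helix-loop-helix factors that BMP and STAT signals induce, read 9.09, 9.27 and 9.48 (lowest, median and highest of 6) with mCherry-Fc, against 7.41, 7.53 and 7.81 in untreated synthetic receptor cells. With natural receptors it read 9.42, 9.60, 9.54 and 8.81 with IL-22, against 7.60, 7.45, 7.32 and 7.27 in untreated natural receptor cells. The responses were 1.73 ± 0.10 with mCherry-Fc and 1.93 ± 0.12 with IL-22, neither with overlap. Its difference of -0.20 had a 95% interval of -0.53 to 0.13 and was called without IL-22 replicate 5 (-0.379, adjusted p = 0.0369). Fosl1, an AP-1 factor, rose by 1.27 ± 0.14 with mCherry-Fc and 1.20 ± 0.17 with IL-22, and its difference of 0.07 (95% interval -0.38 to 0.51) was -0.33 within the low and 0.92 within the high sample numbers. Rpp38, a subunit of RNase P, rose by 1.01 ± 0.08 and 1.05 ± 0.10 with a 95% interval of the difference of -0.29 to 0.21. The immediate early genes Ier2 and Ier3 rose with both, and the Ier3 difference of -0.79 was called without the natural arrays numbered 4 and 5 (-1.74, adjusted p = 2.28e-05). Without untreated natural replicate 5 alone it was -1.20 (adjusted p = 0.0233). Pprc1, a coactivator of mitochondrial biogenesis, rose by 0.79 ± 0.11 and 0.97 ± 0.14, and its difference was called without IL-22 replicate 5 (-0.395, adjusted p = 0.0321).

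A total of 198 genes were called in both responses with opposite signs and a called difference, which is 0.993% of all genes. Kdm6b, a demethylase of lysine 27 on histone H3, was the large case of a gene that fell with mCherry-Fc and rose with IL-22. It read 9.46, 9.63 and 9.82 (lowest, median and highest of 6) with mCherry-Fc, against 9.92, 10.02 and 10.20 in untreated synthetic receptor cells. In the natural line it read 11.14, 11.11, 11.18 and 11.02 with IL-22, against 9.44, 9.31, 10.01 and 10.23 in untreated natural receptor cells. There was no overlap in either line, and the responses were -0.41 ± 0.11 and 1.36 ± 0.14 (difference -1.77 ± 0.18, adjusted p = 3.13e-08). S1pr4, a lymphoid receptor for sphingosine-1-phosphate, went the other way, with 0.60 ± 0.09 and -0.71 ± 0.11, as did Sik1, a salt-inducible kinase, with 0.75 ± 0.11 and -0.68 ± 0.14. Both lacked overlap in both lines and differed by 1.31 ± 0.14 and 1.43 ± 0.18. Pdp1, a phosphatase that activates pyruvate dehydrogenase, differed by 1.11 ± 0.14 and Pacc1, a proton-activated chloride channel, by 0.91 ± 0.17.

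Several of the most positive differences came from genes that IL-22 lowered. Mc5r, a melanocortin receptor, fell by 0.42 ± 0.12 with mCherry-Fc and by 2.28 ± 0.15 with IL-22 (difference 1.86 ± 0.19). Cnr2, the cannabinoid receptor of immune cells, read 6.13, 6.25 and 6.44 (lowest, median and highest of 6) with mCherry-Fc, against 5.92, 6.08 and 6.42 in untreated synthetic receptor cells, with overlap. In natural receptor cells it read 5.29, 5.10, 5.57 and 6.10 with IL-22, against 6.29, 6.42, 7.06 and 7.73 in untreated natural receptor cells, without overlap, and the difference was 1.48 ± 0.28 (adjusted p = 0.000556). Cdc42ep3, an effector of CDC42, was lowered by IL-22 alone (-1.34 ± 0.11) and differed by 1.37 ± 0.14. Tor4a, a torsin ATPase, was lowered by IL-22 alone (-1.05 ± 0.15) and differed by 1.28 ± 0.19. Gfi1b and Klf1, transcription factors of the red cell and platelet lineages, had IL-22 responses of -1.49 ± 0.09 and -1.12 ± 0.07, mCherry-Fc values of -0.18 ± 0.07 (not called) and -0.25 ± 0.06, and differences of 1.30 ± 0.12 and 0.87 ± 0.10. With Epor, the erythropoietin receptor (0.51 ± 0.10), they were the 3 of 5 measured erythroid genes that were higher, beside 8.76% of all genes. The list named 8 genes, and the median difference of the measured ones was 0.51.

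Of 27 measured FOXO target and starvation genes, mCherry-Fc lowered 8 and raised 1, and IL-22 lowered 12 and raised 2. The difference was higher for 6 of the 27 and lower for 3 (median 0.20), beside 8.76% and 4.6% of all genes. With the sample number as a block 3 were higher and 3 lower (median 0.14), within the low sample numbers 12 and 4 (median 0.26), and within the high ones 1 and 2 (median 0.01). Cdkn1b, the cell cycle inhibitor p27, read 9.39, 9.45 and 9.53 (lowest, median and highest of 6) with mCherry-Fc, against 9.51, 9.58 and 9.71 in untreated synthetic receptor cells, overlapping. In the natural line its levels were 7.69, 7.92, 7.80 and 8.99 with IL-22, against 9.25, 9.23, 9.40 and 9.67 in untreated natural receptor cells, without overlap, and the difference was 1.14 ± 0.20 (adjusted p = 0.000289), 1.35 within the low and 0.33 within the high sample numbers. Ccng2, a cyclin of arrested cells, had the widest spread. With IL-22 it read 6.56, 6.60, 6.35 and 8.97, so that replicate 5 lay near the untreated natural arrays at 8.66, 8.64, 9.44 and 9.62. Its mCherry-Fc value was -0.59 ± 0.27 (not called) and its difference 1.38 ± 0.42 (adjusted p = 0.0271), 1.74 within the low and -0.20 within the high sample numbers. The Ccng2 call was lost on leaving out any 1 of 5 natural arrays, with a lowest value of 1.13 without IL-22 replicate 3. Sesn1, a sestrin that restrains mTORC1, was lowered by IL-22 alone and differed by 1.02 ± 0.13. Arrdc3, an arrestin-like protein, fell with both and differed by 0.96 ± 0.27, and Bcl6, a repressor in B cells, ran against the list, raised by IL-22 alone with a difference of -1.26 ± 0.26.

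Cell cycle genes were higher in the difference. Of 28 measured genes of the G1 to S transition 12 were higher and 0 lower (median 0.17), and of 20 measured G2 and mitosis genes 6 were higher and 0 lower (median 0.23), beside 8.76% of all genes called higher and 4.6% lower. mCherry-Fc raised 10 and lowered 1 of the first list while IL-22 raised 1 and lowered 11. For the second list mCherry-Fc raised 5 and lowered 1, and IL-22 raised 0 and lowered 7. The sizes were small, for example 0.60 ± 0.08 for Cdca7, a MYC and E2F target, 0.49 ± 0.10 for E2f1, 0.53 ± 0.12 for the replication licensing factor Cdt1 and 0.49 ± 0.10 for Aurora kinase A (Aurka). Cdca7 read 9.71, 9.82 and 9.94 (lowest, median and highest of 6) with mCherry-Fc, against 9.48, 9.59 and 9.66 in untreated synthetic receptor cells. It read 9.57, 9.64, 9.54 and 9.56 with IL-22, against 9.98, 10.02, 9.82 and 9.90 in untreated natural receptor cells, so it rose with one ligand and fell with the other, without overlap. Ccne2, cyclin E2, differed by 0.57 ± 0.16, but by -0.0143 within the high sample numbers, and its adjusted p was 0.0501 without IL-22 replicate 1 and 0.0555 with the sample number as a block.

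Subunits of the respiratory chain rose with mCherry-Fc, and none was called with IL-22. Of 24 measured, mCherry-Fc raised 17 and lowered 0 (median 0.23), and IL-22 called 0 (median 0.00). The difference was higher for 8 of the 24 and lower for 0 (median 0.22), beside 8.76% and 4.6% of all genes. Cox5a, a subunit of cytochrome c oxidase, read 10.01, 10.09 and 10.26 (lowest, median and highest of 6) with mCherry-Fc, against 9.29, 9.45 and 9.57 in untreated synthetic receptor cells. With natural receptors it read 9.48, 9.32, 9.45 and 9.49 with IL-22, against 9.30, 9.41, 9.32 and 9.34 in untreated natural receptor cells. It rose by 0.67 ± 0.06 with mCherry-Fc without overlap (adjusted p = 3.47e-09), and the difference was 0.58 ± 0.09 (adjusted p = 3.8e-05), 0.61 within the low and 0.51 within the high sample numbers. Uqcrq of complex III and Ndufa4 differed by 0.56 ± 0.11 and 0.46 ± 0.12. Ribosomal protein genes were higher for 3 of 17 (median 0.13), beside 8.76% of all genes. Among them were Rplp1 (0.47 ± 0.09) and Rpl8 (0.31 ± 0.07), whose probes can also bind RNA of near-identical copies.

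These small positive values have to be read against the brightness of the genes. Over all genes with a mean log2 level of 7 to 9 the median difference was 0.16 and 20.1% were called higher, and at 9 to 11 the median was 0.12 and 17.4% were called higher. At a mean of 5 to 7 the median was -0.11 and 1.6% were called higher. Of 31 genes of MYC and ribosome biogenesis 4 were higher and 0 lower with a median of 0.14, while mCherry-Fc raised 27 and IL-22 raised 16. The count of higher genes was 9 with median centring, 8 with the sample number as a block, 8 without the natural arrays numbered 4 and 5 and 7 among genes with a mean log2 of at least 7. Nop56, a protein of the small nucleolar particles, rose by 0.87 ± 0.06 with mCherry-Fc and 0.42 ± 0.07 with IL-22 (difference 0.46 ± 0.09). Tfrc, the transferrin receptor, went opposite ways, 0.26 ± 0.07 and -0.33 ± 0.08. The respiratory chain, G1 to S and G2 lists had median mean levels of 10.55, 9.69 and 10.23, in the range where the median difference over all genes was 0.12, beside list medians of 0.22, 0.17 and 0.23. The FOXO list, at a median mean level of 8.58, lay in the range of 7 to 9, where the median was 0.16, beside its 0.20. The erythroid list (8.42) and the immediate early and MAPK feedback list (7.59) lay there too, where 20.1% of all genes were called higher. Ribosomal protein genes, at 12.67, lay in the range of 11 to 15, where the median was 0.06 and 9.49% were called higher, beside their 0.13. The part of brightness in these values was not tested.

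**Figure D4:**
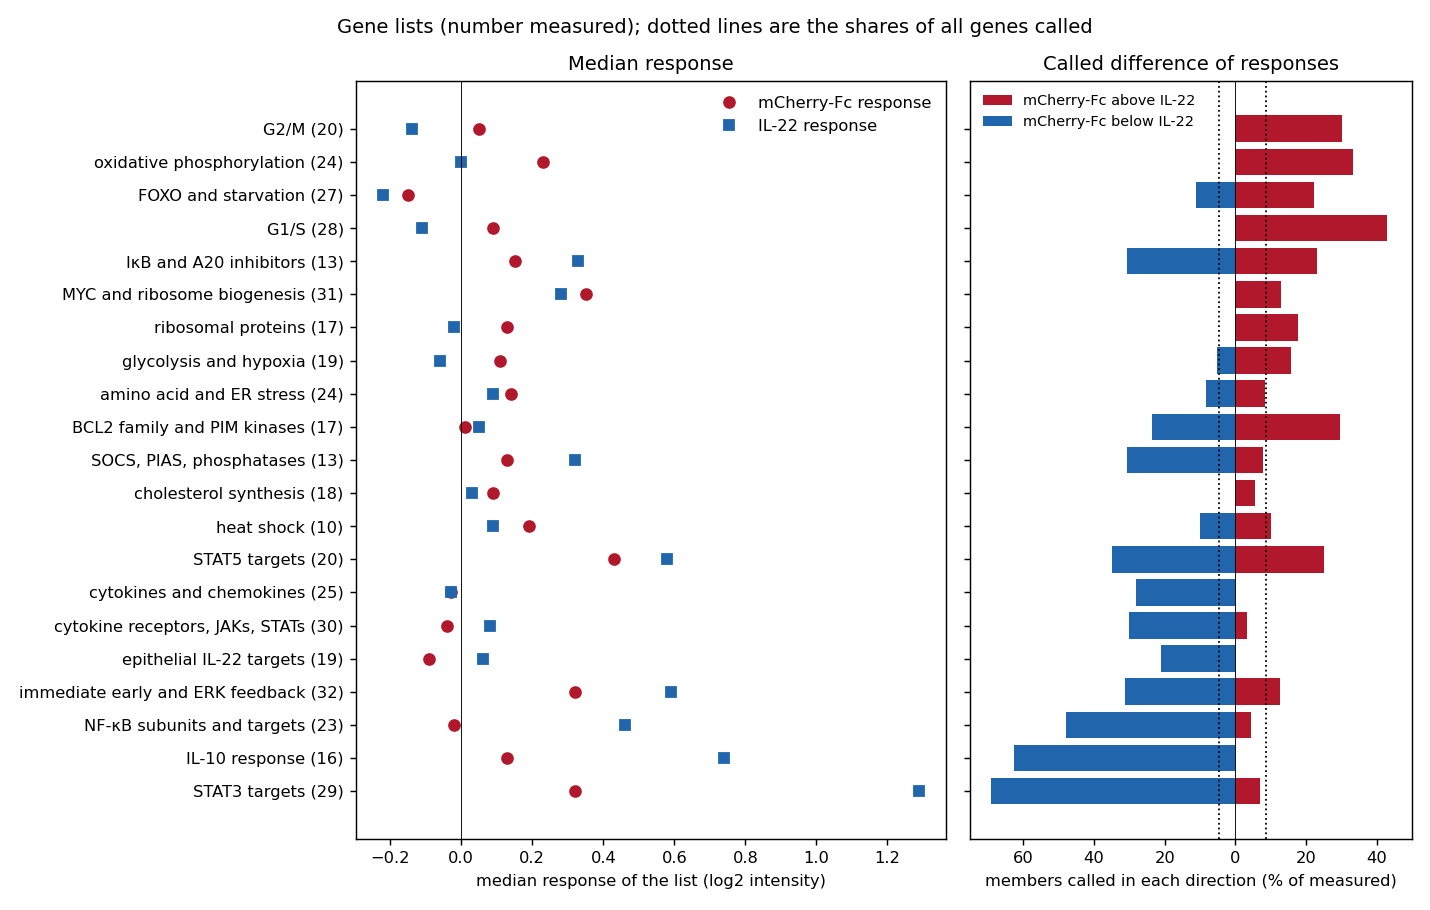
Left, the median log2 response of each gene list to mCherry-Fc (circles) and to IL-22 (squares), with the number of measured genes beside the list's name. Right, the percentage of measured members called above (red) and below (blue) in the difference, with dotted lines at the shares of all genes, 8.76% and 4.6%. STAT3 targets have the widest gap, at 0.32 with mCherry-Fc and 1.29 with IL-22, and the G1/S, G2/M and oxidative phosphorylation lists have no member called below.

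Of the metabolic, stress and survival lists, BCL2 and PIM genes had 52.9% of their members called in either direction, glycolysis and hypoxia 21.1%, heat shock 20%, amino acid and endoplasmic reticulum stress 16.7% and cholesterol synthesis 5.56%, beside 13.4% of all genes. Glycolysis and hypoxia genes had 3 higher and 1 lower of 19, and all 4 (Car9, Pfkl, Pgam1 and the lower Pfkfb3) lost their call with the sample number as a block, at 0.322 (adjusted p = 0.183), 0.407 (0.0872), 0.528 (0.0741) and -0.383 (0.194). Heat shock genes had 1 higher and 1 lower of 10, where Dnajb1, an HSP40 co-chaperone, rose by 0.25 ± 0.05 with mCherry-Fc and 1.24 ± 0.07 with IL-22 (difference -0.98 ± 0.08). The higher one, Hspe1, was not called with the block (0.302, adjusted p = 0.0981). Single arrays decided these calls too, since without IL-22 replicate 1 the values were 0.389 for Car9 (adjusted p = 0.0522), 0.377 for Pfkl (0.0618), 0.518 for Pgam1 (0.0954), -0.409 for Pfkfb3 (0.0710) and 0.265 for Hspe1 (0.106). Amino acid and endoplasmic reticulum stress genes had 2 higher and 2 lower of 24, with Nupr1, a stress-induced chromatin protein, at -1.08 ± 0.20 and Xbp1, the unfolded protein response factor, at -0.52 ± 0.08. Cholesterol synthesis had 1 higher of 18, Tm7sf2 (0.36 ± 0.09). In the BCL2 and PIM list 5 were higher and 4 lower of 17, among them Bcl2 itself, lowered by IL-22 alone (-0.45 ± 0.08) with a difference of 0.60 ± 0.10, and the death-promoting Bmf, raised by IL-22 alone with a difference of -0.63 ± 0.16.

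GFP-mCherry on the same synthetic cells allows a comparison within 1 line. mCherry-Fc differed from GFP-mCherry in 218 genes (1.09%; 74 higher, 0.371%, and 144 lower, 0.722%). Of the 12 genes with the most negative mCherry-Fc minus IL-22 difference, 2 differed between the 2 synthetic ligands, Il4ra (-0.35 ± 0.07) and Rnd1 (-0.51 ± 0.08). The median response of these 12 to mCherry-Fc was 0.45 and to GFP-mCherry 0.43, responses that share their untreated arrays. Socs3 read 8.28, 8.36 and 8.44 with mCherry-Fc and 8.32, 8.44 and 8.61 with GFP-mCherry (lowest, median and highest of 6 each), a difference of -0.08 ± 0.07 with a 95% interval of -0.23 to 0.06. Il2ra differed by 0.14 ± 0.13 between them and Stat3 by 0.14 ± 0.05, neither of them called. Of the 12 with the most positive difference only Dusp6 differed, higher with mCherry-Fc than with GFP-mCherry by 0.78 ± 0.09 (adjusted p = 1.13e-06). Id1 and Myc were also higher with mCherry-Fc, by 0.92 ± 0.10 and 0.42 ± 0.07, and Cish was lower (-0.63 ± 0.11). Of the genes called at 2-fold or more between these ligands, 18 were lower with mCherry-Fc and 1 was higher. Nfkbia read 8.38 to 8.74 with mCherry-Fc and 11.61 to 11.98 with GFP-mCherry. Zc3h12a read 7.32 to 7.55 with mCherry-Fc and 9.11 to 9.66 with GFP-mCherry. Icam1, Ier3 and Tnf also read lower on every mCherry-Fc array than on any GFP-mCherry array. Other genes raised by mCherry-Fc overlapped between the 2 ligands. Cox5a read 10.01 to 10.26 with mCherry-Fc and 10.06 to 10.25 with GFP-mCherry. Ndufa4 read 11.23 to 11.64 and 11.40 to 11.70, and Spred2 9.70 to 9.81 and 9.65 to 9.81.

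Between the high and the low sample numbers the difference itself differed for 282 genes (1.41%), and for 18 of the 109 named genes. Among them were Il2ra, Il4ra, Osm, Lif and Cish, all lower with mCherry-Fc than with IL-22 in both ranges but less so in the high one. Mc5r, Cdc42ep3 and Cdkn1b were higher in both ranges and less so in the high one. Pim1, Ier3, Ier2, Ccng2, Fosl1 and Pfkfb3 had values of opposite sign in the 2 ranges. The split was known from an earlier look at these data, so these counts are no independent test of it, and its high range holds 1 IL-22 array.

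**Figure D5:**
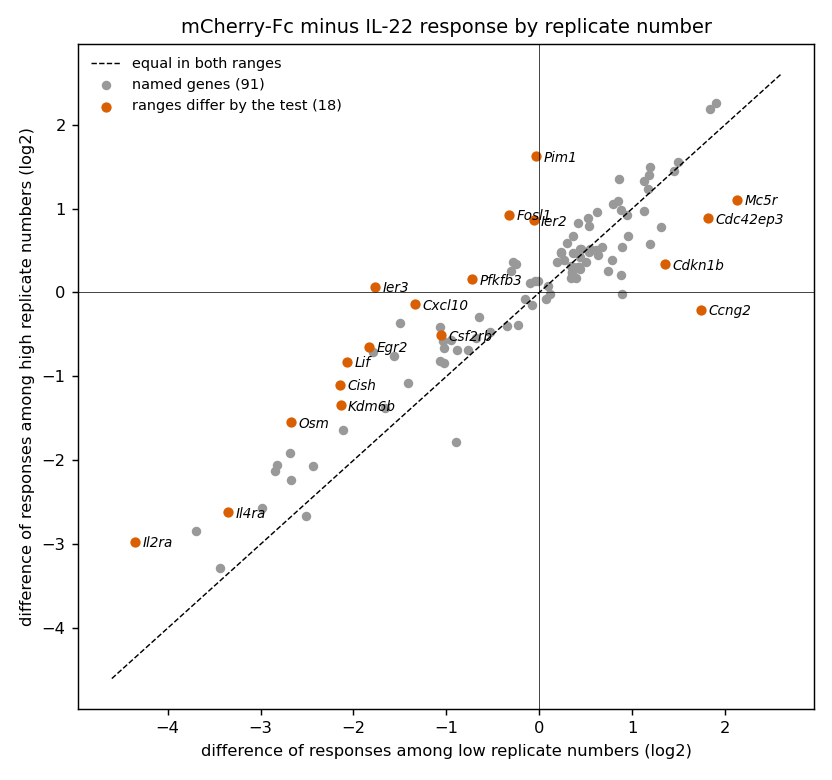
Difference between the mCherry-Fc and IL-22 responses for each named gene within the high sample numbers (vertical axis, natural 4 and 5 with synthetic 12 to 15) against within the low sample numbers (horizontal axis, natural 1 to 3 with synthetic 7 to 11), both log2, with the dashed line marking equal values. Grey points are 91 named genes and orange points the 18 whose 2 values differed by the test. Il2ra and Il4ra lie at the lower left and Mc5r and Cdc42ep3 at the right, all on the same side of 0 in both ranges, while Pim1, Ier3, Ccng2 and Fosl1 lie far from the line.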

How the data were processed

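RNA of 26 samples was read on 1-colour Affymetrix mouse gene arrays, from 150 ng total RNA (RNA integrity number over 8), per the labels' protocols. The authors deposited log2 intensities per probe set, made with Affymetrix Expression Console 4.0 per the submitters' processing notes. The algorithm and background correction are not given in the sources used here. Values ran from 1.79 to 14.31, no 2 arrays were identical, and 0 columns lacked a sample.

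Of 35556 probe sets, 21789 had 1 gene symbol in the platform annotation, 1621 several and 12146 none. Of those with 1 symbol, 21698 matched a current gene record and 91 kept the annotation's name. For the 999 genes with several probe sets the brightest over all arrays was used, which left 19938 genes. Dim genes were kept. The 26 arrays (5 groups) were fitted together with limma 3.58.1 under R 4.3.3 (lmFit, then eBayes). Two-sided p-values had Benjamini-Hochberg adjustment over those 19938 genes, and 0.05 was the threshold. The fit was tested on simulated data. Intervals are 95% intervals of the model.

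The groups compared, 28 gene lists (478 genes, 447 measured) and the rule for named genes were chosen with earlier results of these data known. The rule takes the 12 largest positive and 12 largest negative called differences, 8 genes each of 3 classes (opposite responses, mCherry-Fc response without IL-22 response, same-sign responses without a called difference), the 4 called members of each list with the largest difference, and a fixed set that includes Socs3, Cish, Myc, Pim1 and the receptor chains, 109 genes in all. Predicted loci, small RNAs, olfactory and vomeronasal receptors and antigen receptor segments were left out. Jak2, Il21r, Il10, Il27, Nfil3, Spry2, Fosl2, E2f1, Cdt1, Arrdc3, Nfkbie, Ccnd2, Id2 and Mpo are outside that rule and were chosen after their values were seen.

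Arrays with the same number deviated together in every pair (correlations of 0.378, 0.313 and 0.621 for natural numbers 2, 3 and 5, and 0.26, 0.466 and 0.326 for synthetic numbers 9, 13 and 14). Arrays of unlike number were not compared in this way, so whether the numbers pair the samples was not tested. A fit with the number as a block is given where it changes a call. In its fixed form IL-22 replicate 1, untreated natural replicate 4 and mCherry-Fc replicates 8, 10 and 15 have no partner. A call lost there can therefore reflect fewer usable arrays. Alternatives were quantile normalization, median centring, the mean of probe sets, 2 filters on dim genes, a trended robust prior, array weights, the 20 arrays alone, a minimum change of 1.5-fold, a fixed or random block, the number range as a term or split, and leaving out each array. The number range rested on an earlier look at these data. A further alternative, leaving out the natural arrays numbered 4 and 5, was chosen after seeing the data.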

Additional observations from a re-analysis of the deposited data

Results flagged for a closer look

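Among 436 group and gene pairs of the named genes, 28 held a value far from the rest of the group, 6.42%, where chance gives about 1 in 20. Of these values 19 were on IL-22 replicate 5 and 9 on 6 other arrays. On IL-22 replicate 5, 14 genes read lower than on the other IL-22 arrays. Gadd45g read 11.59 there, against a median of 12.06 on the other 3 arrays, Il4ra 12.34 (12.82), Sbno2 10.89 (11.25), Osm 9.68 (10.59) and Stat3 11.70 (11.89). Egr2 read 8.14 (9.35), Ier2 8.29 (8.84), Cxcl10, an interferon-induced chemokine, 5.59 (6.90) and Pfkfb3, a glycolytic regulator, 7.91 (8.53). Pprc1 read 8.49 (9.37), Rrp1b 9.02 (9.63), Kti12 9.05 (9.66), Eif1a 9.59 (10.19) and Il22ra1 12.07 (12.28). The other 5 genes read higher there, Ccng2 at 8.97 (6.56), Pim2 at 12.55 (11.90), Pfkl at 10.84 (10.53), Tnip1 at 10.05 (9.42) and Map3k8 at 8.10 (7.81). The same array was 1 of the 3 natural arrays bright in some myeloid markers, and the part of that in these values was not tested.

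The other 9 values were Dusp6 at 8.52 on untreated synthetic replicate 14 (median of the others 8.38), Pacc1 at 7.24 on the same array (7.58), Icam1 at 8.58 on mCherry-Fc replicate 10 (8.29) and Il22ra1 at 6.16 on mCherry-Fc replicate 9 (6.26). In untreated natural receptor cells they were Dusp7 at 8.75 on replicate 3 (8.59), Xbp1 at 11.50 on replicate 2 (11.41), and Il4ra at 8.96 (8.77), Pfkfb3 at 7.80 (7.55) and Sesn1 at 9.71 (9.52) on replicate 5.

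The difference between the mCherry-Fc and IL-22 responses itself differed between the high and the low sample numbers for 18 of the 109 named genes, by a limma contrast of high minus low in which 282 of all genes were called (1.41%). Of the genes with less induction by mCherry-Fc than by IL-22, the gap was smaller among the high numbers for Il2ra (1.38), Il4ra (0.73), Osm (1.12), Lif (1.24), Cish (1.04), Egr2 (1.18), Kdm6b (0.79), Cxcl10 (1.19) and Csf2rb (0.55). For Pfkfb3 (0.88) it changed sign, negative among the low and positive among the high numbers. Genes lowered by IL-22 also had smaller gaps among the high numbers, with Ccng2 at -1.94, Cdkn1b at -1.02, Mc5r at -1.02 and Cdc42ep3 at -0.94. Genes induced by both ligands moved toward mCherry-Fc among the high numbers, with Ier3 at 1.83, Pim1 at 1.65, Fosl1 at 1.25 and Ier2 at 0.92. The high numbers hold 1 IL-22 array, which is IL-22 replicate 5, and the 2 untreated natural arrays bright in some myeloid markers. The split of numbers was known from an earlier look at these data, so these flags are no independent test of it.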

How the results depend on the processing

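The number of genes called in the difference, 2664, was 2030 to 3776 under the other alternatives, apart from 121 at a minimum change of 1.5-fold, 4279 with the number range as a term, 4253 within the low and 872 within the high sample numbers. Of the 2664 genes, 1968 were shared with the 2544 of the fixed replicate block, 2664 with the 3776 of the random block, 2329 with median centring (3384), 1945 with quantile normalization (2137) and 2018 with the 20 arrays alone (2030). The fixed replicate block ended the calls of Car9, Ccne2, Duox2, Hspe1, Pfkfb3, Pfkl, Pgam1, Pim1, Rpl19 (0.304, adjusted p = 0.108) and Socs1. It changed no other call of a named gene, and the random block ended none. The mCherry-Fc count, 5371, became 3234 after quantile normalization and 15 at a minimum change of 1.5-fold. The IL-22 count, 2277, became 195 at that minimum and 759 within the high numbers, where the lone IL-22 array is taken to vary as the other groups do. The 218 genes between mCherry-Fc and GFP-mCherry became 478 with array weights, 16 at 1.5-fold, 100 with the fixed replicate block, 469 with the number range as a term, 504 within the low numbers and 370 without the natural arrays numbered 4 and 5. The 20-array fit gives no value for that comparison. The 282 genes that differed between number ranges became 145 with median centring. Leaving out each array in turn gave 1997 to 3359 genes for the difference, 3834 to 6460 for mCherry-Fc, 1720 to 3112 for IL-22 and 170 to 288 for mCherry-Fc against GFP-mCherry, and ended the call of 13 of the 95 called named genes for at least 1 array. Of 3800 values of named genes under alternatives, 3557 kept their direction and side of the threshold, 229 lost and 10 gained a call, and 4 changed sign. These were Ccne2 (-0.0143), Ccng2 (-0.204) and Pfkfb3 (0.155) within the high numbers and Pim1 (-0.0308) within the low ones. Where no value above shows it, the cause was not tested. Dim genes limit what can be seen, since a mean log2 level under 5 went with 0.268% called higher and 1.96% lower.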

Other observations

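Several genes outside the pathways above rose with mCherry-Fc without a called IL-22 response. Gna15, a G protein alpha subunit of blood cells, read 10.15, 10.18 and 10.39 (lowest, median and highest of 6) with mCherry-Fc, against 9.40, 9.49 and 9.53 in untreated synthetic receptor cells. In natural receptor cells it read 9.39, 9.62, 9.30 and 9.94 with IL-22, against 9.70, 9.63, 9.97 and 10.18 in untreated natural receptor cells. Its groups did not overlap in the synthetic line and did in the natural one, and the difference was 1.06 ± 0.14 (adjusted p = 2.64e-06). Per2, a core component of the circadian clock, rose by 0.72 ± 0.07 with mCherry-Fc beside 0.12 ± 0.08 with IL-22 (difference 0.60 ± 0.11). H2ac4, a replication-dependent histone, differed by 0.97 ± 0.22, and Cdr2 by 0.62 ± 0.14. Without the natural arrays numbered 4 and 5 H2ac4 fell with IL-22 (-0.502, adjusted p = 0.0128) and its difference was 1.36. Kti12 differed by 0.51 ± 0.17, a call that ended without IL-22 replicate 5 (0.346, adjusted p = 0.108) and without any 1 of 9 other arrays.

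STAT5 targets split in both directions. Of 20 measured, mCherry-Fc raised 12 and IL-22 raised 13. The difference was lower for 7 and higher for 5 (median -0.05), beside 4.6% and 8.76% of all genes. The lower members included Il2ra, Cish, Osm and Id2, an inhibitor of helix-loop-helix factors (-1.22 ± 0.41), and the higher ones Pim1, Pim2, Myc, Spred2 and Ccnd2, cyclin D2 (0.48 ± 0.08). Inhibitors of NF-kB split as well, with 4 lower and 3 higher of 13, beside the same shares of all genes. Tnip1 was higher (0.52 ± 0.14), as was Nfkbie, the epsilon form of the NF-kB inhibitor (0.49 ± 0.12), which rose with mCherry-Fc by 0.51 ± 0.08. Zc3h12a, the RNase Regnase-1, was lower (-0.52 ± 0.13). Of 16 measured B lineage genes, a dim list (median mean level 5.31), 1 was called in the difference, beside 13.4% of all genes. It was Cd79b (0.39 ± 0.10), which was not called after quantile normalization (0.310, adjusted p = 0.0573). Of 4 genes of the interleukin-3 receptor and line list, the 2 called, again beside 13.4%, were Csf2rb and Csf2rb2.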
